A study of Mus musculus with 3 samples.

Results

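The 7 genes that mark muscle satellite cells and their progenitors followed here in 3 mouse libraries were the transcription factor genes Pax7, Pax3 and Msx1, the adhesion receptor gene Vcam1, the sialomucin gene Cd34, and the syndecan genes Sdc3 and Sdc4. They were chosen by name from known satellite cell biology, with the values of these libraries already known, and the raised Pax7 level was among the values that chose them. Their differences are therefore given as a description, with no test. All 7 were found among the 22068 genes listed, and 5 of them (Pax7, Vcam1, Cd34, Sdc3 and Sdc4) had a mean of at least 1 RPKM over the 3 libraries, as did 10172 genes in all. Pax3 and Msx1 did not. RPKM scales the reads of a gene by its length and by the reads of the library, so levels on this scale can be compared between genes.

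RNA came from C2C12, an established line of mouse myoblasts that stops dividing and forms myotubes when serum is withdrawn. The 3 stable lines were made with lentivirus and selected with blasticidin: a Linc-RAM overexpression line, a Linc-RAM knockdown line that carried a short hairpin RNA (shRNA) against this long non-coding RNA, and a control line with the empty vector. All 3 were grown to near confluence in fetal bovine serum and then kept for 12 h in differentiation medium with 2% horse serum before polyadenylated RNA was taken. The study asked how the amount of Linc-RAM affects gene expression during myogenic differentiation. Whether each line was a clone or a pool is not given in the sources used here, and the knockdown was set against an empty vector and not, as far as the labels say, against a non-targeting hairpin.

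With 1 library per condition, none of the differences below could be checked in a replicate, and a difference between lines cannot be told apart from the effect of Linc-RAM. The read totals that fit the deposited values were 2105513 for overexpression, 1878146 for knockdown and 5130481 for the control, so that 1 read weighed most in the knockdown library. Linc-RAM itself, listed as 2310015B20Rik, had 1, 0 and 0 reads in the overexpression, knockdown and control libraries, too few to check the labels. Intervals below are 95% intervals from the reads recovered for each gene (exact Poisson for a level, exact Clopper-Pearson for a ratio). They cover counting error only, and reads of PCR-amplified libraries are not independent molecules. In bulk RNA, fewer cells that express a gene and less RNA per cell cannot be told apart.

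Satellite cells are the stem cells of skeletal muscle, which lie between the fibre and its basal lamina and are quiescent until injury. Pax7 marks them in adult muscle and maintains them, while its paralogue Pax3 acts mainly in the embryo, where it specifies migrating limb muscle progenitors. On activation the cells express Myod1, and Pax7 is lost as Myog is switched on and the cells leave the cycle. Msx1 is a homeobox repressor that holds embryonic progenitors undifferentiated. Vcam1, Cd34, Sdc3 and Sdc4 encode surface proteins used to identify or isolate satellite cells, and the syndecans carry heparan sulphate chains that present growth factors such as FGF2 and HGF to their receptors. None of these surface proteins is confined to muscle: Vcam1 and Cd34 are also made by endothelium and mesenchymal cells, and syndecans by many cell types.

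The promoters of Pax7 and Cd34 are shown because these were the members that differed at least 2-fold from the control. Each window runs from 250 bases before to 50 bases after the annotated start (RefSeq, build GRCm38.p6), and capitals mark the 50 bases from the start onwards. The Pax7 window lies at chr4:139832919-139833218 on the reverse strand and the Cd34 window at chr1:194938571-194938870 on the forward strand. These positions are on GRCm38 and are not those of mm9, the build of the deposited values.
Pax7: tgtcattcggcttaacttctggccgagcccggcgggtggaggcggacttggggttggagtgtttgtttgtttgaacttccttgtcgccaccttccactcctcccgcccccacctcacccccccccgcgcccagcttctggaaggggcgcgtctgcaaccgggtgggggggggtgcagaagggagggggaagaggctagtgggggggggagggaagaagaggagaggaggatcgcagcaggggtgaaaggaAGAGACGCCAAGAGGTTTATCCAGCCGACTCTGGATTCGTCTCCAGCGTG
Cd34: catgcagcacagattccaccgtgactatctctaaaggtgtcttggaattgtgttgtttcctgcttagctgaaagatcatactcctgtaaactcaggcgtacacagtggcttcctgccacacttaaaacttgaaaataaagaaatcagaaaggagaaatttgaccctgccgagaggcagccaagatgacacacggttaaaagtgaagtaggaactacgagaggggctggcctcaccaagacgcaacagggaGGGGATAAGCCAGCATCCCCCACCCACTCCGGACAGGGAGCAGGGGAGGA
E-boxes (CANNTG, the same on both strands), the sites bound by MyoD and its relatives, were searched in these windows. Neither printed window held one, nor did those of Sdc3 and Sdc4, whereas the Msx1 window held 1 (CACCTG, first base at -210 from the start). Of 32851 RefSeq windows of this length, 72.3% held a CANNTG and 16.3% held its subset CAGCTG, which was in none of the 5 member windows. Pax3 and Vcam1 had no entry in the promoter table. The 300 bases of a window leave out distal enhancers, and a match or its absence is a description of these letters only.

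Pax7 was higher in both Linc-RAM lines than in the control, and higher with knockdown than with overexpression. It was listed at 2.78 RPKM with overexpression (25 reads) and 5.36 RPKM with knockdown (43 reads), against 0.228 RPKM in the control (5 reads). The intervals of these levels were 1.80 to 4.10 RPKM with overexpression, 3.88 to 7.21 RPKM with knockdown and 0.0740 to 0.532 RPKM in the control, so both lines lay clear of the control within counting error. The counting limit is the control: its 5 reads allow a mean of 1.62 to 11.7 reads. A single Pax7 read was worth 0.111 RPKM in the overexpression library, 0.125 RPKM in the knockdown library and 0.0456 RPKM in the control.

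Relative to the control, Pax7 stood at 12.2-fold in the overexpression line (4.58 to 40.8) and at 23.5-fold in the knockdown line (9.32 to 76.0). The size of either ratio is thus known to within about an order of magnitude, while its direction was the same at both ends of the interval. Set directly against each other, the overexpression and knockdown lines had a ratio of 0.519 (0.304 to 0.868). With 1 RPKM added to each value the ratios to the control were 3.08 and 5.18. Among the 10165 genes with a ratio, 9 genes had a higher one than Pax7 with overexpression and 1 gene with knockdown. Pax7 met the minimum level only through these lines, since its control value alone would not have reached it. In rank among all listed genes Pax7 stood at 7889 with overexpression and 5547 with knockdown, against 11643 in the control.

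**Figure D1:**
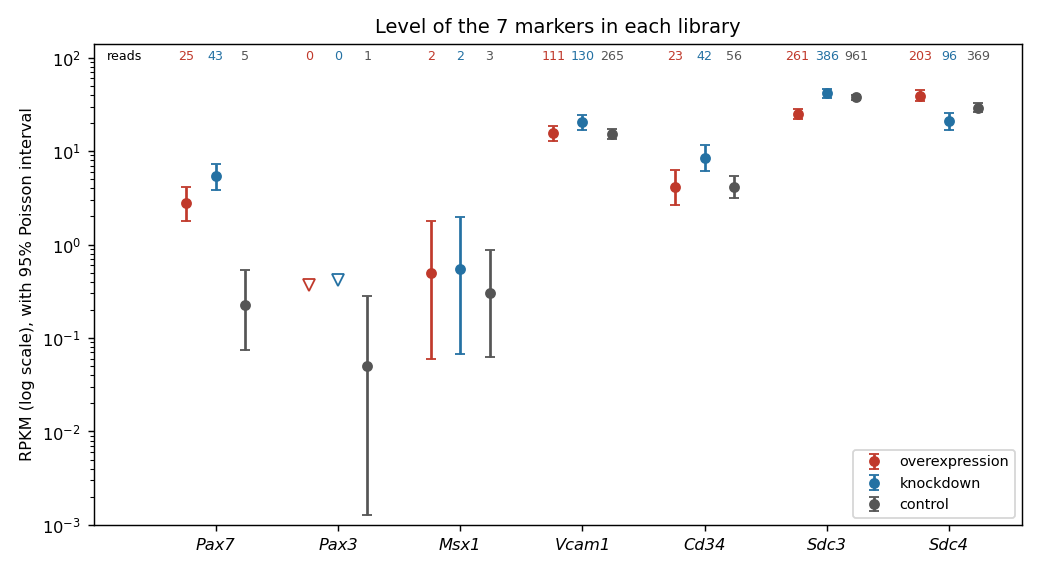
Level of the 7 markers in the overexpression (red), knockdown (blue) and control (grey) libraries, in RPKM on a log axis. Points are single libraries, bars are 95% Poisson intervals, numbers at the top are reads, and open triangles mark the 3-read limit where a gene was listed at 0. The control point of Pax7 (0.228 RPKM) lies below the bars of both Linc-RAM lines, whereas the other measured markers differ far less.

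The Pax7 read counts depend on the gene length behind the RPKM. All 3 values were whole reads at 4275 nt and next at 8550 nt, beyond the longest GENCODE transcript of Pax7 (5856 nt). The length of 4275 nt is that of no GENCODE transcript, of which the shortest has 1725 nt. For Vcam1 and Cd34 the lengths found, 3398 and 2621 nt, were those of annotated transcripts. For Sdc3, Sdc4, Msx1 and Pax3 they lay within 5 nt of one. Pax7 lies on chromosome 4 of mm9 from 139292977 to 139389445 on the reverse strand, and Sdc3 on the same chromosome from 130348452 to 130382234.

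The pattern of Pax7 over the 3 libraries was most like those of AU021092, the netrin gene Ntn4 and the keratin gene Krt19, at distances of 0.85, 1.57 and 1.74 in the pair of log2 ratios to the control among 10122 genes. AU021092 had 8, 6 and 1 reads in the overexpression, knockdown and control libraries, Ntn4 had 13, 6 and 2 reads, and Krt19 had 18, 6 and 2 reads. All 3 therefore rest on even fewer control reads than Pax7, and each had fewer reads with knockdown than with overexpression, the opposite order to Pax7.

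Pax3 and Msx1 were at the edge of detection. Pax3 (chromosome 1 of mm9, 78097842 to 78193709) had 0 reads with overexpression, 0 with knockdown and 1 in the control. A count of 0 allows up to 3 reads, or 0.368 RPKM with overexpression and 0.413 RPKM with knockdown, which is above the control value of 0.0504 RPKM, so no ratio is given. Msx1 (chromosome 5, 38211724 to 38215822) had 2 reads with overexpression, 2 with knockdown and 3 in the control, at 0.492, 0.551 and 0.303 RPKM. Its ratios to the control were 1.62 (0.136 to 14.2) and 1.82 (0.152 to 15.9), and no difference was detectable at this depth. The other PAX genes were at or near 0 too: of Pax1, Pax2, Pax4, Pax5, Pax6, Pax8 and Pax9, 6 were listed at 0 in all 3 libraries and Pax6 had 1 read, with knockdown.

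Cd34, a transmembrane sialomucin of blood and vascular progenitors that also marks quiescent satellite cells, was higher with knockdown and not with overexpression. It had 4.17 RPKM with overexpression (23 reads) and 8.53 RPKM with knockdown (42 reads), against 4.16 RPKM in the control (56 reads). The overexpression and control values were nearly equal, with a ratio of 1.0 (0.588 to 1.65), whereas the knockdown ratio was 2.05 (1.34 to 3.11). The direct ratio of overexpression to knockdown was 0.488 (0.280 to 0.831). The ratio with knockdown was just past 2-fold, and with upper quartile scaling or 1 RPKM added it was not. The genes most like Cd34 in pattern were the homeobox gene Hoxa3, the zinc finger gene Zfp763 and Pcyt1b, an enzyme gene of phosphatidylcholine synthesis, at distances of 0.04, 0.05 and 0.06.

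Vcam1, the receptor through which satellite cells bind α4β1 integrin, differed little between the lines. It stood at 15.5 RPKM with overexpression (111 reads) and 20.4 RPKM with knockdown (130 reads), against 15.2 RPKM in the control (265 reads). The ratio to the control was 1.02 in the overexpression line (0.810 to 1.28) and 1.34 in the knockdown line (1.08 to 1.66), and that of overexpression to knockdown was 0.762 (0.586 to 0.989). Counting error alone leaves room for a Vcam1 ratio with knockdown anywhere between these bounds, the lower of which lay close to 1. On mm9 Vcam1 lies on chromosome 3 from 115812938 to 115832606 and Cd34 on chromosome 1 from 196765015 to 196787486.

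The syndecans were the most abundant members and went opposite ways with overexpression. Sdc3, which in mouse satellite cells takes part in Notch processing and in keeping cells undifferentiated, was at 24.9 RPKM with overexpression (261 reads) and 41.3 RPKM with knockdown (386 reads), against 37.7 RPKM in the control (961 reads). Its ratio was 0.662 with overexpression (0.575 to 0.760) and 1.10 with knockdown (0.972 to 1.24). Sdc4, a co-receptor of fibronectin and FGF signals that is needed for satellite cell activation in mice, was at 39.2 RPKM with overexpression (203 reads) and 20.8 RPKM with knockdown (96 reads), against 29.2 RPKM in the control (369 reads). Its ratio was 1.34 with overexpression (1.12 to 1.60) and 0.711 with knockdown (0.562 to 0.892).

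Of the 5 measured members, Sdc4 alone exceeded the control when Linc-RAM was overexpressed and lay under it when Linc-RAM was knocked down. Its direct ratio of overexpression to knockdown was 1.89 (1.47 to 2.43), against 0.603 (0.513 to 0.708) for Sdc3. The order of these genes within a library turned accordingly. Sdc4 exceeded Sdc3 by 1.57-fold with overexpression (1.30 to 1.90), while Sdc3 exceeded Sdc4 by 1.99-fold with knockdown (1.59 to 2.51) and by 1.29-fold in the control (1.14 to 1.46). Sdc4 lies on chromosome 2 of mm9 from 164249747 to 164269387.

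**Figure D2:**
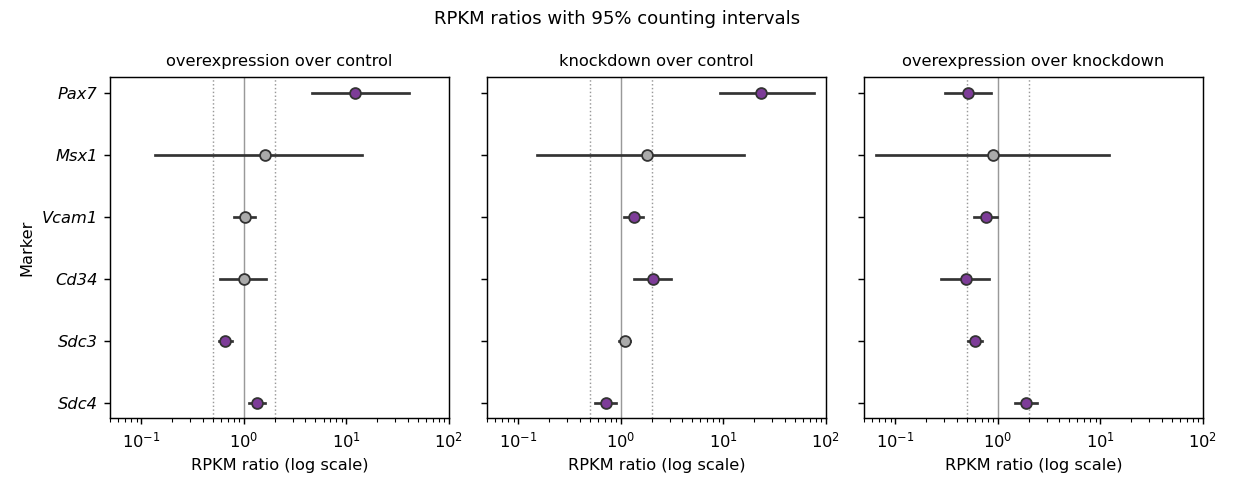
RPKM ratios of 6 markers on a log axis for overexpression over control, knockdown over control and overexpression over knockdown. Points are the ratios of single libraries, lines their 95% counting intervals, purple points have intervals that leave out 1, and dotted lines mark 2-fold. Pax7 lies far to the right against the control in both lines, Cd34 and Vcam1 are to the right only with knockdown, and Sdc4 changes sides. Pax3 has no ratio and is not drawn.

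Below the syndecans the order of levels was Vcam1, Cd34, then Pax7 and Msx1. Vcam1 exceeded Cd34 in every library, by 3.72-fold with overexpression (2.36 to 6.11), 2.39-fold with knockdown (1.67 to 3.47) and 3.65-fold in the control (2.73 to 4.96). With knockdown Sdc4 and Vcam1 could not be ordered within counting error (1.02, 0.775 to 1.34), nor could Cd34 and Pax7 with overexpression (1.5, 0.814 to 2.76). In the control Pax7 ranked below Msx1, but these could not be ordered either (1.33, 0.206 to 6.83). Pax7 thus moved from the near-undetected members in the control to within 1.59-fold of Cd34 in the knockdown library (1.02 to 2.50).

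Counted over the 5 measured members, overexpression had 1 at 2-fold or more above the control (Pax7) and 0 as far below it, against 3.64% and 3.47% of 10165 genes. Knockdown had 2 above (Pax7 and Cd34) and 0 below, against 3.38% and 4.19% of all genes. For overexpression over knockdown 0 were higher and 1 was lower (Cd34), against 5.83% and 5.11% of 10146 genes. Since the values were known when the members were chosen, nothing is read from these counts. The counting interval of the ratio left out 1 for 3 members with overexpression (Pax7, Sdc3 and Sdc4) and for 4 with knockdown (Pax7, Vcam1, Cd34 and Sdc4), as it did for 18.0% and 19.4% of 10162 genes. It did so for all 5 measured members in overexpression over knockdown, against 17.8% of 10143 genes. Whether an interval leaves out 1 depends on the reads of a gene, and Sdc3, Sdc4 and Vcam1 had 1608, 668 and 506 reads in all. The share over all genes is therefore not a like background, and nothing is read from these interval counts either. The median log2 ratio of the 5 members was 0.03 with overexpression and 0.42 with knockdown, and over all genes it was 0.00 and -0.01. Both comparisons share the control library.

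**Figure D3:**
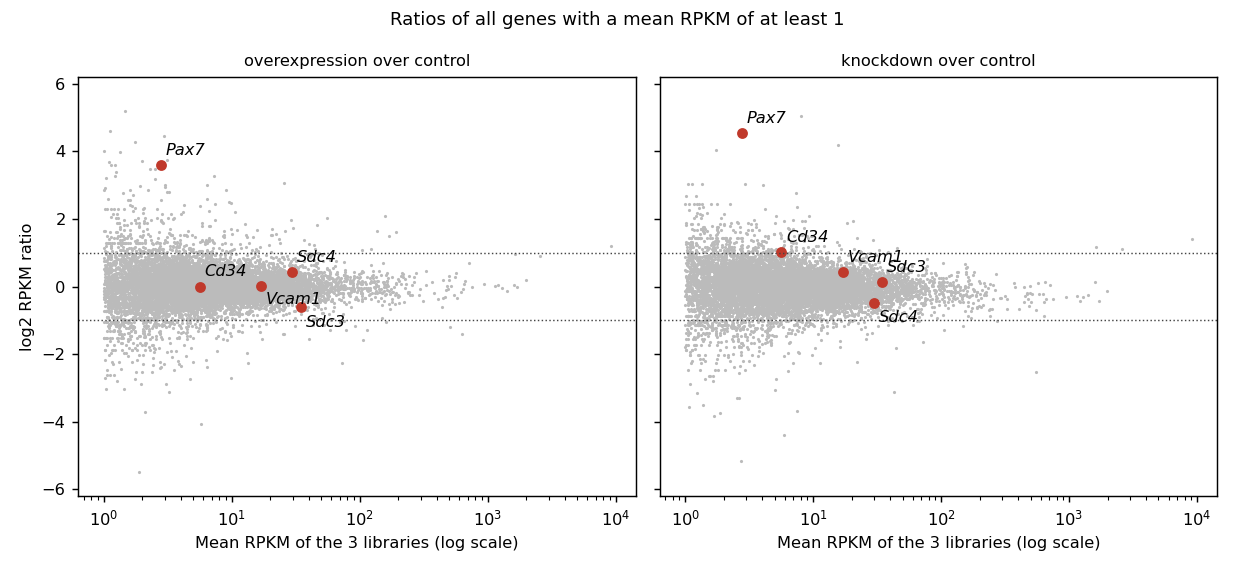
Log2 RPKM ratio to the control of 10147 genes with overexpression and 10140 with knockdown, against the mean RPKM of the 3 libraries (log axis). Grey points are genes, red points the 5 measured markers, and dotted lines mark 2-fold. The spread of the grey points widens towards low levels, where Pax7 sits near their upper edge with overexpression and above nearly all of them with knockdown.

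The lineage markers were those of myoblasts. All 9 listed myoblast genes were measured, among them the intermediate filament genes Vim and Des, and they summed to 2528 RPKM with overexpression, 1672 with knockdown and 2301 in the control. Vim, which mesenchymal cells of many kinds express, made most of these sums. The 8 others summed to 658 RPKM with overexpression and 289 with knockdown, against 434 in the control, and Des was at 0.499 of the control with knockdown (0.456 to 0.545). Endothelial and blood cell markers were low, whereas those shared with fibroblasts were not. Of 8 endothelial markers 0 reached a mean of 1 RPKM, their sums were 1.24 RPKM with overexpression, 1.4 with knockdown and 0.639 in the control, and Kdr, Emcn and Tie1 were listed at 0 in all 3 libraries. Of 7 blood cell markers found, 5 were listed at 0 throughout, including Ptprc, and the rest were Cd14 and Cd68, with sums over the list of 5.23 RPKM with overexpression, 5.50 with knockdown and 4.09 in the control. Of 8 fibroblast and fibro-adipogenic markers 7 were measured, with sums of 444, 249 and 263 RPKM in the overexpression, knockdown and control libraries. Ly6a made most of the difference in that sum, at 248 RPKM with overexpression and 82.3 with knockdown, against 78.9 in the control, and Dcn was also higher with overexpression (3.86-fold, 1.78 to 8.72). Osr1 was lower with knockdown (0.304, 0.0589 to 0.986), from 3 reads, while Pdgfra was higher with knockdown, the same direction as Cd34 (1.94-fold, 1.44 to 2.59, from 83 reads). Of the 7 measured markers of this list 4 lay above the control and 3 below it with overexpression (median log2 ratio 0.04), and 3 above and 4 below with knockdown (median -0.14). The part of such cells in the member values was not tested. Pdgfra was singled out after its values were seen. Pericyte markers summed to 38.3 RPKM with overexpression, 57.1 with knockdown and 68.3 in the control, mostly Pdgfrb. Those of neural crest and Schwann cells summed to 2.06 RPKM with overexpression, 0.321 with knockdown and 0.377 in the control, with 0 of 7 measured.

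Among other genes of satellite cells and myoblasts, 25 of 34 listed were measured. With overexpression 16 lay above the control and 9 below it, with a median log2 ratio of 0.14. By 2-fold or more 5 were higher and 1 was lower, against 3.64% and 3.47% of all genes. The highest was Heyl, a Notch target (13.4-fold, 7.52 to 25.7), followed by the SoxE factor gene Sox8 (3.56-fold, 1.67 to 7.85) and the laminin receptor gene Itga7 (3.32-fold, 2.89 to 3.83). The lower one was the growth factor receptor gene Egfr (0.449, 0.309 to 0.638). In overexpression over knockdown 7 of the 25 were higher by 2-fold or more and 1 was lower, with a median log2 ratio of 0.55. The shares of all genes were 5.83% and 5.11%. Because the list was drawn up with earlier results of these data known, nothing is read from its counts.

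With knockdown 12 of these 25 lay above the control and 13 below it, with a median log2 ratio of 0.00. By 2-fold or more 0 were higher and 3 were lower, against 3.38% and 4.19% of all genes. The 3 lower ones were the Notch target Hey1 (0.228, 0.0261 to 0.917, from 2 reads), the receptor gene Notch1 (0.419, 0.273 to 0.622) and Cdh15, the M-cadherin of satellite cells (0.480, 0.357 to 0.636). The Notch targets Heyl and Hes1 had knockdown ratios of 1.17 (0.369 to 3.24) and 1.24 (0.627 to 2.35), with intervals that hold 1. With overexpression Hey1 was at 0.711 (0.259 to 1.70), and this interval holds 1 too, whereas Hes1 was at 2.07 (1.20 to 3.53). Notch1 was at 8.36 RPKM with overexpression and 1.63 with knockdown, against 3.88 in the control. Nes, the intermediate filament gene of progenitors and the most abundant of the list, was at 227 and 92.2 RPKM in the overexpression and knockdown lines, against 170 RPKM in the control. Calcr, the calcitonin receptor of quiescent satellite cells, was listed at 0 in all 3 libraries, and Myf5, the earliest myogenic factor, had ratios of 1.35 (0.988 to 1.82) and 0.896 (0.614 to 1.28). Higher with knockdown by less than 2-fold, with intervals that leave out 1, were Met (1.70, 1.38 to 2.10), Ncam1 (1.48, 1.28 to 1.71), Megf10 (1.48, 1.28 to 1.70) and Cav1 (1.47, 1.32 to 1.64). Calcr, Myf5, Egfr, Hes1, Met, Ncam1, Megf10 and Cav1 were singled out after their values were seen.

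All 12 listed cofactors of Pax3 and Pax7 were measured. Of these 12, including the methyltransferase complex of Mll2, Ash2l, Wdr5 and Rbbp5, 0 were 2-fold from the control in either line, a count near the background given above (3.64% higher and 3.47% lower with overexpression, 3.38% and 4.19% with knockdown), with medians of -0.10 with overexpression and 0.01 with knockdown. The most abundant was Nedd4, a ubiquitin ligase of PAX7, at 133 and 189 RPKM in the overexpression and knockdown lines, against 145 RPKM in the control. Among 25 embryonic progenitor regulators 11 were measured, with medians of -0.20 and 0.25. Pitx3 alone was 2-fold from the control, with knockdown (2.73, 0.629 to 11.9, from 5 reads with knockdown and 5 in the control), and its interval holds 1.

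Several myogenic differentiation genes were higher with overexpression, among them Myog, whose induction normally accompanies the loss of Pax7. Of 12 listed, 6 were measured, and Ckm, Myh3 and Myl1 were listed at 0 in all 3 libraries. Tnnt2 was near the control with overexpression (0.959, 0.572 to 1.56). These 4 were named after their values were seen. With overexpression 3 of the 6 measured genes exceeded the control by 2-fold or more and 0 fell short by as much. The shares of all genes were 3.64% and 3.47%. The 3 were Myog (5.60-fold, 3.60 to 8.91), the skeletal actin gene Acta1 (3.66-fold, 1.37 to 10.3) and Myod1 (2.04-fold, 1.61 to 2.58). The median log2 ratio of the 6 was 0.97. With knockdown 0 of the 6 were higher and 1 was lower, against 3.38% and 4.19% of all genes. The lower one was the fusion gene Tmem8c (0.210, 0.00494 to 1.4, from 1 read), and Myod1 stood at 0.584 (0.391 to 0.85). In overexpression over knockdown 4 of the 6 were higher and 0 were lower, against 5.83% and 5.11% of all genes, with a median log2 ratio of 1.61. Because the list was drawn up with earlier results of these data known, nothing is read from these counts. In the overexpression line Pax7, Myog and Myod1 were all above the control. In the knockdown line Pax7 was above it and Myod1 was below it. Myog with knockdown could not be told from the control (0.911, 0.397 to 1.91, from 10 reads). In bulk RNA it cannot be told whether the same cells carried Pax7 and these myogenic genes.

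Among 15 ligands, relatives and partners of Vcam1 and Cd34, 10 were measured, 0 were 2-fold from the control with overexpression and 1 was with knockdown, the integrin subunit gene Itgb7 (3.23, 1.33 to 7.96), which is also near the background share of all genes. The medians were 0.09 and -0.21, and the most abundant gene was Msn, a linker of membrane to actin (153 and 111 RPKM in the overexpression and knockdown lines, against 151 RPKM in the control). Itga4, the α4 subunit that binds VCAM1, had 6 reads with overexpression, 0 with knockdown and 3 in the control, while its partner Itgb1 was at 80.5 and 64.9 RPKM in the overexpression and knockdown lines, against 83.0 RPKM in the control. Itga4 and Itgb1 were singled out after their values were seen.

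The other syndecans differed little from the control. Sdc1 had ratios of 1.11 with overexpression (0.996 to 1.24) and 1.02 with knockdown (0.907 to 1.15), and Sdc2 had ratios of 0.894 (0.809 to 0.987) and 1.08 (0.981 to 1.19), both named after their values were seen. Of 12 proteoglycans and related genes, Sdc1 and Sdc2 included, 8 were measured, with median log2 ratios of 0.06 with overexpression and -0.21 with knockdown. Of these 8 only Cd44, a hyaluronan receptor, was 2-fold from the control, with overexpression (2.37, 2.15 to 2.62). The glypican gene Gpc1 was the most abundant (178 and 129 RPKM in the overexpression and knockdown lines, against 178 RPKM in the control).

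Of 24 genes that build or edit heparan sulphate, 16 were measured. Below the control lay 11 of 16 with overexpression and 13 of 16 with knockdown. Their median log2 ratios were -0.28 and -0.25, against 0.00 and -0.01 over all genes. The share of all genes below the control was not counted. The 2 comparisons share the control library and are not independent, so nothing is read from these counts. Sulf2, an endosulphatase that alters FGF binding, was higher in both lines (2.06, 1.46 to 2.90, with overexpression and 2.24, 1.58 to 3.16, with knockdown). Its paralogue Sulf1, the more abundant endosulphatase gene and named after its values were seen, was lower in both (0.604, 0.492 to 0.738, with overexpression and 0.523, 0.416 to 0.653, with knockdown). The heparanase gene Hpse was at 0.406 with overexpression (0.102 to 1.18), and the chain polymerase gene Ext1, the most abundant, was at 1.61 with overexpression (1.43 to 1.81) and 0.854 with knockdown (0.732 to 0.994).

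Among 18 ligands, co-receptors and cytoplasmic partners of syndecans 15 were measured, with medians of 0.05 and -0.05. Fgf2 was at 0.406 with overexpression (0.00883 to 3.35), from 1 read. Tnc, the matrix protein tenascin C, was at 0.498 with knockdown (0.453 to 0.547), and the Rac activator gene Tiam1 was 2.56-fold higher with knockdown (1.67 to 3.93). Fn1, the fibronectin to which Sdc4 binds, was the most abundant, at 591 and 420 RPKM in the overexpression and knockdown lines, against 478 RPKM in the control.

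**Figure D4:**
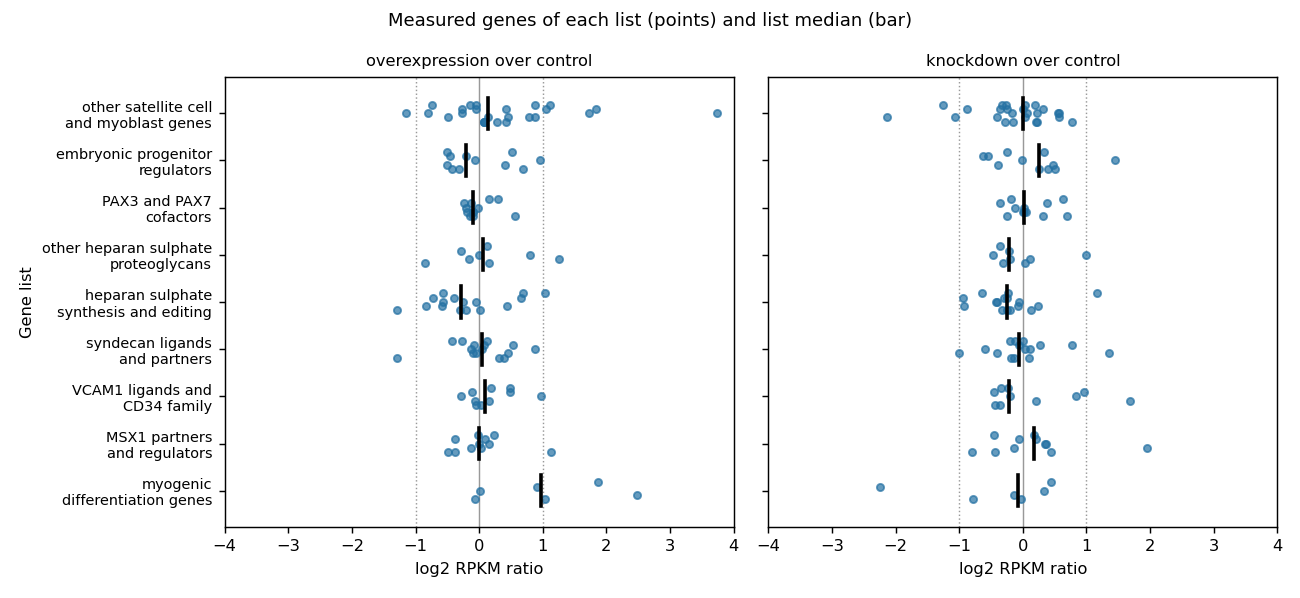
Log2 RPKM ratios to the control of the measured genes of 9 lists around the satellite cell markers, with overexpression and knockdown. Each point is a gene, each black bar the median of a list, and dotted lines mark 2-fold. Most medians lie near 0, and that of the myogenic differentiation genes is 0.97 with overexpression and -0.08 with knockdown.

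Around Msx1, a bone morphogenetic protein (BMP) target, 11 of 15 partners and regulators were measured, with medians of 0.00 and 0.18. Bmp4, a ligand that induces Msx1 in embryonic tissue, was 3.88-fold higher with knockdown (2.39 to 6.35), at 3.10 RPKM with overexpression and 11.8 with knockdown, against 3.03 in the control. The homeobox gene Dlx3 was 2.20-fold higher with overexpression (1.58 to 3.05). Id3, an inhibitor of myogenic bHLH factors and the most abundant gene of this list, had ratios of 0.711 (0.473 to 1.04) and 1.37 (0.985 to 1.88), both with intervals that hold 1.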

How the data were processed

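The members and gene lists were chosen with earlier results of these data known. The authors aligned the reads to mm9 by TopHat (the submitters' processing notes give version 1.4.1), obtained gene coverage with DEGSeq and deposited an RPKM for every gene in each of the 3 libraries. Which annotation was counted, whether strand was used and how multiply mapped reads were treated is not given in the sources used here.

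Ratios are of the deposited RPKM without a pseudocount. Genes had to average 1 RPKM over the libraries, and the study's 2-fold criterion was used. A gene at 0 in the first library only counted as lower. To find each read total, the RPKM of genes below 1 RPKM was multiplied by a GENCODE transcript length on mm9 and by candidate totals. The smallest total was kept whose share of genes at whole reads reached 0.85 of the highest share. With overexpression 27.8% of 2180 such genes were whole, with knockdown 29.1% of 2031 and in the control 29.6% of 2769, with a tolerance of 6e-06 per read. Reads per gene used an annotated length where one was whole in all 3 libraries (3393 of 13590 genes above 0). Failing that, the shortest length of at least 200 nt that gave whole reads was used (13584 genes in all), so that reads are lower estimates. On simulated data with known totals and with lengths at or near annotated ones, recovered reads were equal for 97.3% of 1500 genes. The length found for Pax7 was not near an annotated one, so this share need not hold for it. Of 10096 simulated intervals of overexpression over control, 96.7% held the true ratio. These used the simulated reads and totals, so they check the interval formula and not the recovery of reads.

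Named genes are all members and, of each list, the gene of highest mean RPKM and up to 3 genes per comparison with the control that were at least 2-fold from it; 1 gene that the rule names is not reported here. Likeness is the Euclidean distance over 2 log2 ratios. Alternatives were other scalings, added constants, filters, thresholds and, for the reads, the smallest whole length. Software comprised Python 3.11.15 with numpy 2.4.6 and pandas 2.3.3. Intervals came from scipy 1.17.1, and matplotlib 3.10.9 drew the plots.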

Additional observations from a re-analysis of the deposited data

How the results depend on the processing

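With 1 library per condition no library could be left out, and no paired analysis was possible because each condition has 1 sample. Of 108 alternative values of member ratios, 106 lay within the counting interval of the main ratio and 2 lay outside it. After a 2-fold call 0 changed side of 1. The 2 were those of Pax7 with 1 RPKM added, 3.08 with overexpression and 5.18 with knockdown. The 106 include, for every ratio, the setting with the smallest whole length for the reads. That setting cannot change a ratio of RPKM, so its agreement was fixed in advance and says nothing about stability. Pax3 has no ratio under any setting. The number of members at least 2-fold higher with overexpression (1) became 0 at a mean RPKM of at least 5, where Pax7 is left out, and the number lower (0) became 1 at 1.5-fold (Sdc3) or with no filter (Pax3, listed at 0). With knockdown the number higher (2) became 1 at a mean RPKM of at least 5 (Cd34), with 1 RPKM added or with upper quartile scaling (Pax7 each), and the number lower (0) became 1 with no filter (Pax3). For overexpression over knockdown the number higher (0) became 1 at 1.5-fold (Sdc4), and the number lower (1) became 3 at 1.5-fold (Pax7, Cd34 and Sdc3), 0 with 1 RPKM added and 2 with the rescaling to a fixed sum (Pax7 and Cd34). Over all genes, a 2-fold ratio whose counting interval also left out 1 was met by 262 in place of 370 higher and 192 in place of 353 lower genes with overexpression, 220 in place of 344 and 232 in place of 426 with knockdown, and 353 in place of 592 and 280 in place of 518 for overexpression over knockdown. Under the alternative scalings the median log2 ratio of all genes stayed between -0.09 and 0.02. Depth limits Pax7 through its 5 control reads, and Pax3 and Msx1 through 1 and 7 reads in all.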
